A study of Mus musculus with 6 samples.

Results

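The cytosolic ribosomal protein genes are described here in M2-like macrophages from 3 sites of the mouse. A gene was a member if its symbol on the array platform was Rpl or Rps followed by a digit, or was Rplp0, Rplp1, Rplp2 or Rpsa, and symbols of kinases, binding proteins and pseudogenes with similar names were left out. This gave 64 of the 19057 genes with a symbol, 38 of the large and 26 of the small ribosomal subunit. They were measured by 95 probes on Illumina bead arrays. The cells were taken from C57BL/6 mice aged 10 weeks and defined, per the series title, by the surface proteins CD206, F4/80 and CD11b. Each group had 2 arrays: macrophages of the heart after myocardial infarction (MI heart), of the intact heart and of the peritoneal cavity. No genetic change or drug is given for any group, and no group is labelled as sham-operated. Whether the 2 arrays of a group came from different animals is not in the labels, and the spread behind the p-values may therefore be technical.

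The cytosolic ribosome joins a small subunit, which reads the messenger RNA, to a large subunit, which forms the peptide bond. Each subunit is built on ribosomal RNA with a set of proteins that are needed in equal numbers, one copy of each per ribosome for nearly all of them, and cells therefore tend to make these proteins together. Their messenger RNAs begin with a stretch of pyrimidines, the 5′ terminal oligopyrimidine (TOP) motif, through which the kinase complex mTORC1 controls how strongly they are translated. Control of this kind acts on translation, which RNA arrays do not measure.

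All values are normalized signals on the log2 scale, and every difference is a log2 difference with its standard error (± SE, 2 arrays a group). A probe was used if its signal was above background, with a detection p-value under 0.05, on each of the 2 arrays in 1 or more groups. Of the 64 genes, 58 passed (36 large and 22 small subunit), and 54 of these were above background on all 6 arrays. Rpl39l, Rpl6, Rps15a, Rps20, Rps23 and Rpsa did not pass. Rpl5 and Rpl11, which form the 5S particle, as well as Rpl7 and Rps27, were not analysed here. In all, 10533 features were tested, 8244 named genes and 2289 unnamed probes, with limma and Benjamini-Hochberg adjustment over all of them. Between 12433 and 14606 probes were above background on an array, the fewest on intact heart replicate 1. Of the macrophage list, 12 of 12 genes were tested, and they went both ways. In the intact heart 4 were higher and 2 lower than in the peritoneal cavity. In the MI heart 5 were higher and 2 lower than in the peritoneal cavity. Between MI heart and intact heart 2 were higher and 1 was lower. These were 50%, 58.3% and 25% of the list, above the 25.4%, 17.6% and 9.5% called over all features. Adgre1, which encodes F4/80, had 7.51 and 8.16 on the MI heart arrays, 7.70 and 7.38 on the intact heart arrays and 7.74 and 8.21 for the peritoneal cavity. Mrc1, which encodes CD206, had 8.64 and 9.07 on the MI heart arrays, 9.57 and 9.51 on the intact heart arrays, against 5.20 and 4.99 on the peritoneal arrays, where it was above background but 21.8-fold below the intact heart. Itgam, which encodes CD11b, ran the other way, with 7.15 and 6.86 on the MI heart arrays, 6.32 and 5.64 on the intact heart arrays and 8.16 and 7.96 for the peritoneal cavity. Lyz2, the macrophage lysozyme, was also lower in the intact heart than in the peritoneal cavity (-1.24 ± 0.18).

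Promoters of 53 of the 64 genes were matched to RefSeq (build GRCm38.p6), each with 250 bases before and 50 bases after the annotated start. The letters from 50 bases before to 20 bases after the first listed start are shown for the genes on which the results turn. Capitals mark a C followed by at least 5 pyrimidines, read on the gene's own strand. This C is the first C of its unbroken pyrimidine stretch, which may begin with T, and lies between 10 bases before and 15 bases after the start. A stretch whose first C lies before this window is not marked, such as the one of Rps27l, which begins 12 bases before the start and reaches into the window.
Rps7 (chr12:28635934-28636003, minus strand): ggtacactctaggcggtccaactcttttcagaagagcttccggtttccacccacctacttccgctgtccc
Rps6 (chr4:86857348-86857417, minus strand): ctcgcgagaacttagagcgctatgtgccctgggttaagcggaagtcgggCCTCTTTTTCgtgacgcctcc
Rpl22l1 (chr3:28805458-28805527, plus strand): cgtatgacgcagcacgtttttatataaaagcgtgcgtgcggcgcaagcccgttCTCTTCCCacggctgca
Rpl22 (chr4:152325676-152325745, plus strand): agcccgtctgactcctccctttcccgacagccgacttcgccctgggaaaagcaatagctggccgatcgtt
Rps27l (chr9:66946036-66946105, plus strand): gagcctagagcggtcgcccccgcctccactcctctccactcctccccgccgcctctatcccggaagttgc
Rpl3l (chr17:24727776-24727845, plus strand): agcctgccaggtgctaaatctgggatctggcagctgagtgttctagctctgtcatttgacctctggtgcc

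In Rps6 the run had 10 bases and began 1 base before the annotated start. Of the 53 promoters, 50.9% held such a run, against 20.8% of all 27025 genes of the promoter table. With stretches counted that begin earlier but have such a C inside the window, the shares were 54.7% and 22%. A stricter form, a C at the annotated start itself followed by 4 pyrimidines, was found in 17.0%, against 2.49% of all genes. The letters CCGGAAG, or CTTCCGG on the other strand, are the core bound by ETS transcription factors. They occurred anywhere in the 300 bases of 41.5% of the ribosomal protein promoters, against 9.12% of all genes, and can be read in lower case above in Rps7 (cttccgg) and Rps27l (ccggaag). These matches describe letters and show no binding. In the intact heart against the peritoneal cavity, the median difference was -0.42 for the 23 tested genes with the pyrimidine run and -0.54 for the 25 tested genes without it.

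The median ribosomal protein gene had its highest signal in peritoneal macrophages. Each gene's deviation from its own mean over the 6 arrays had a median of -0.14 and 0.07 on the MI heart arrays, -0.22 and -0.11 on the intact heart arrays and 0.18 and 0.27 for the peritoneal cavity. Both peritoneal arrays thus lay above the other 4, whereas the MI heart arrays lay on either side of intact heart replicate 2. The summed signal of the 58 genes was 3.69% and 4.13% of the signal of all tested features on the MI heart arrays, 3.58% and 3.86% on the intact heart arrays and 4.27% and 4.64% for the peritoneal cavity. The order of group means was peritoneal cavity, MI heart, intact heart, from high to low, for 36 of 58 genes (62.1%), and peritoneal cavity, intact heart, MI heart for another 12. Within the MI heart group, replicate 2 was above replicate 1 for 49 of 58 genes, with a median difference of 0.21 between them, which is larger than the median difference between the MI heart and the intact heart given below. In such bulk samples, fewer cells of a type and less RNA per cell cannot be told apart.

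**Figure D1:**
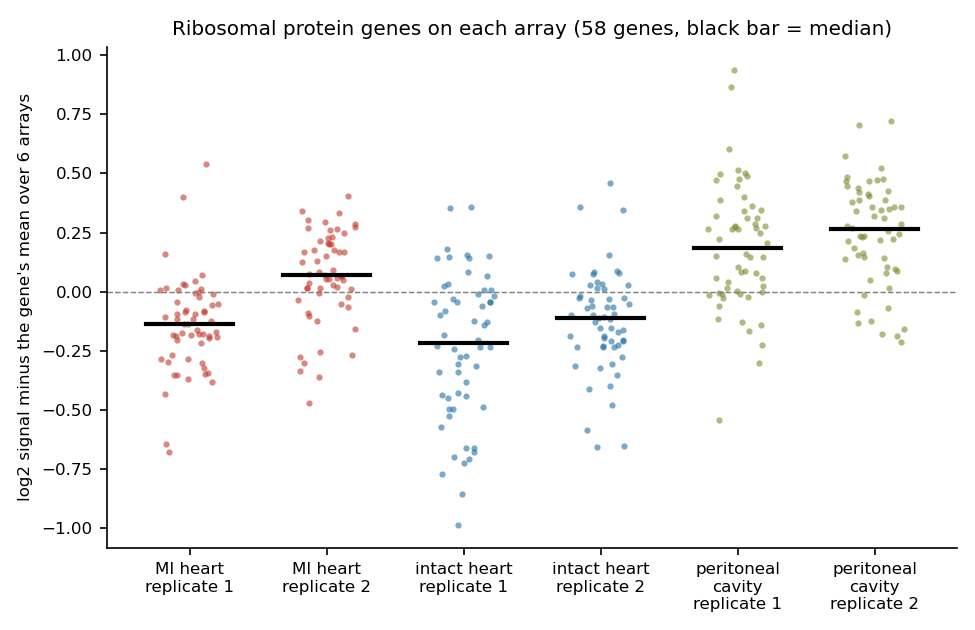
Deviation of each of 58 ribosomal protein genes (points) from its own mean over 6 arrays, in log2 units on the vertical axis, for each array along the horizontal axis; black bars are medians. The medians of both peritoneal arrays (0.18 and 0.27) lie above those of the other 4 arrays, and the MI heart replicates differ from each other (-0.14 and 0.07).

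The first question was how ribosomal protein genes in the MI heart differed from the intact heart. Of the 58 ribosomal protein genes, 1 (Rps7) was higher in the MI heart and 0 were lower by limma, where the background over all features was 4.55% higher and 4.96% lower. At an unadjusted p under 0.05, 9 were higher and 2 were lower, against a background of 11.8% and 13.3%. The groups did not overlap, with the MI heart higher, in 19 genes (background 26.1%) and, with the MI heart lower, in 12 (background 28%). The median difference was 0.17 (all features -0.003), and 41 genes lay above 0 and 17 below. Of all features, 49.6% lay above 0 and 50.4% below. Rpl3l and Rpl14, counted among the 41, passed the filter only through the MI heart arrays, where they are highest. Without MI heart replicate 2 the median was -0.007, with 28 genes above 0 and 30 below. Without MI heart replicate 1 it was 0.30, without intact heart replicate 1 it was 0.05, and with cyclic loess normalization it was 0.04.

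Rps7 encodes a small-subunit protein that takes part in processing of the small ribosomal RNA and, when free, binds the p53 regulator MDM2. Its signal was 7.82 and 8.23 on the MI heart arrays, against 6.95 and 7.35 on the intact heart arrays. The groups did not overlap, and the peritoneal arrays, at 8.80 and 8.46, lay above both. The difference of 0.87 ± 0.22, or 1.83-fold, passed the test narrowly (limma, adjusted p = 0.0401). It was called under 8 of 18 alternative settings, with a difference between 0.65 and 1.18 and an adjusted p between 0.0229 and 0.264. The call was lost without MI heart replicate 1 (adjusted p = 0.0928), MI heart replicate 2 (0.264), intact heart replicate 1 (0.152), peritoneal replicate 1 (0.0707) or peritoneal replicate 2 (0.0732).

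Other members with large positive differences did not pass. Rpl22l1 differed by 0.73 ± 0.20 (limma, adjusted p = 0.0508) and Rps27l by 0.70 ± 0.20 (limma, adjusted p = 0.0647). The 3 largest negative differences were those of Rpl22 (-0.53 ± 0.17, limma, adjusted p = 0.0812), Rpl30 and Rpl7l1, and neither of the last 2 passed. For Rpl30, a large-subunit protein, the difference was -0.46 ± 0.23 with the probe used and 0.35 with its other probe. Rpl7l1, a relative of Rpl7, differed by -0.45 ± 0.17 with the probe used and by 0.35 with the other.

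The second question was how the intact heart differed from the peritoneal cavity. Here 18 of 58 ribosomal protein genes, or 31%, were lower in the intact heart by limma, and 0 were higher, where the background was 12.8% lower and 12.5% higher. At an unadjusted p under 0.05, 25 were lower and 1 was higher, against a background of 20.2% and 17.6%. The median difference was -0.33 (all features -0.03), with 52 of 58 genes below 0 (all features 52.7%). Rps4l, counted among the 52, passed the filter only through the peritoneal arrays, where it is highest. The groups did not overlap, with the intact heart lower, in 39 genes (background 33.5%) and, with the intact heart higher, in 4 (background 29.8%). The number of genes called rested on single arrays. It fell, and most of the 18 lost their call, without intact heart replicate 1, peritoneal replicate 1 or peritoneal replicate 2. The number called over all features fell in these fits too. Without peritoneal replicate 1, or without peritoneal replicate 2, the share of members called lower was near that of all features. With no filter on dim probes 7 members were called. Without peritoneal replicate 2 the calls included Rpl36a, which was lower, and Rpl23, which was higher, and neither is among the 18. The median difference stayed between -0.43 and -0.31 when each array was left out in turn.

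**Figure D2:**
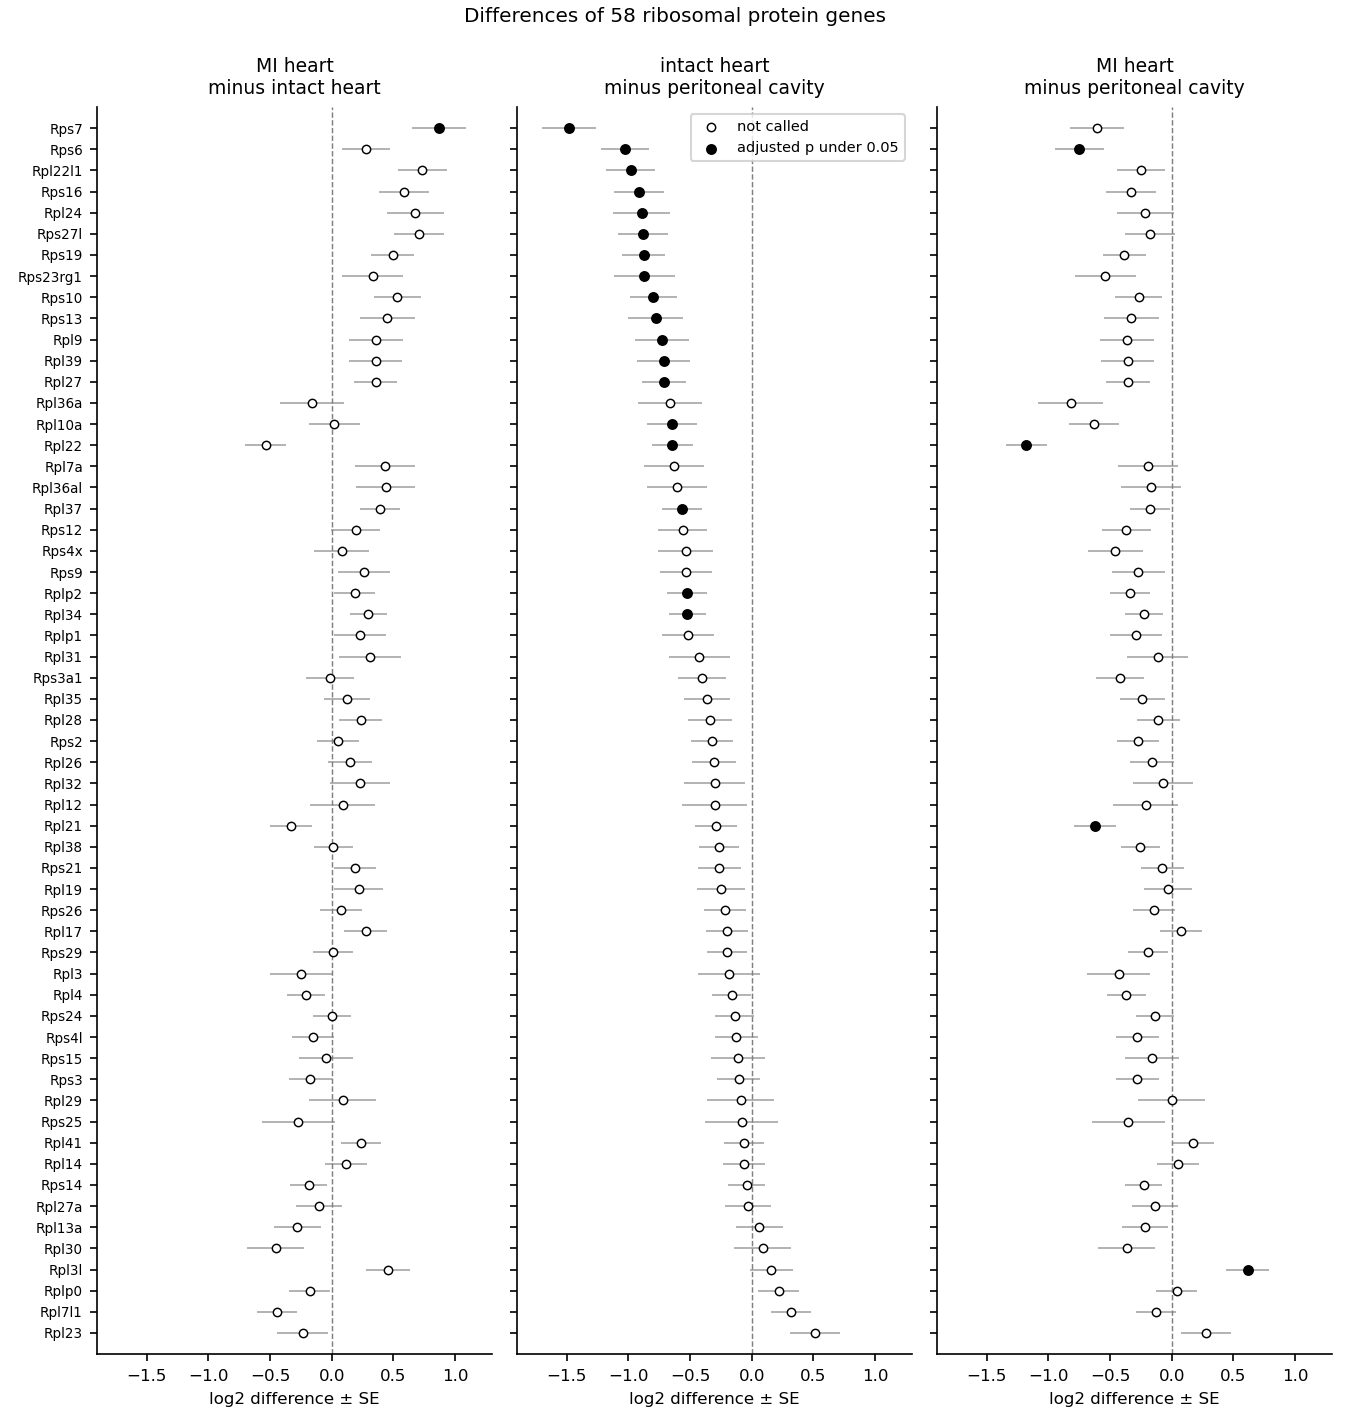
Log2 difference (horizontal axis, ± SE) of each of 58 ribosomal protein genes in the 3 comparisons, ordered by the difference between intact heart and peritoneal cavity; filled points have a limma adjusted p under 0.05. In the middle panel 52 of 58 points lie below 0 and 18 are filled, in the left panel 1 is filled (Rps7), and in the right panel 4 are filled (Rpl22, Rps6, Rpl21 and Rpl3l, the last tested only through its MI heart signals).

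All 22 tested genes of the small subunit were below 0 in this comparison, with a median of -0.47, and 8 were lower by the test. Over all features 52.7% lay below 0 and 12.8% were lower by the test. Rps4l, counted among the 22, passed the filter only through the peritoneal arrays, where it is highest, so its sign supports nothing about the direction. With a detection p under 0.01 required on all arrays 21 of 21 lay below 0, and with no filter 24 of 26 did. With cyclic loess normalization 21 of the 22 lay below 0, with median scaling 22 did, and with each array left out in turn 20 to 22 did. Rps7 had 6.95 and 7.35 on the intact heart arrays, against 8.80 and 8.46 on the peritoneal arrays, a difference of -1.48 ± 0.22 or 2.79-fold (limma, adjusted p = 0.00141). It was called under 18 of 18 alternative settings. Rps6 encodes the protein that S6 kinases phosphorylate downstream of mTORC1. Its signal was 6.89 and 7.37 on the intact heart arrays, against 8.04 and 8.27 on the peritoneal arrays (-1.03 ± 0.20, limma, adjusted p = 0.0055). Without peritoneal replicate 2 its adjusted p was 0.0581, the single alternative of 18 under which it was not called.

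Rps19, in humans the gene most often mutated in the inherited red-cell disorder Diamond-Blackfan anaemia, had 9.98 and 9.60 on the intact heart arrays, against 10.65 and 10.69 on the peritoneal arrays (-0.88 ± 0.18, limma, adjusted p = 0.00666). Rps16, whose tail reaches the decoding site of the small subunit, had 6.55 and 7.09 on the intact heart arrays, against 7.77 and 7.71 on the peritoneal arrays (-0.92 ± 0.20, limma, adjusted p = 0.0107). In both genes each intact heart array lay below both peritoneal arrays. Rps10 (-0.80 ± 0.19), which lies near the messenger RNA entry, and Rps13 (-0.78 ± 0.22) were also lower. Rps13 had a further probe past the filter, with a difference of 0.29 that was not called. Rps23rg1, a mouse retrogene copy of Rps23, fell by 0.87 ± 0.25 on the log2 scale, while the probe for Rps23 itself did not pass the filter. Rps23rg1 is counted as a member by its symbol, and whether its product is part of the ribosome was not tested.

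Of the 36 tested genes of the large subunit, 10 were lower in the intact heart (background 12.8%). Below 0 lay 30 of the 36 (all features 52.7%), with a median of -0.30. The largest differences were those of Rpl22l1 (-0.98 ± 0.20, limma, adjusted p = 0.00677) and Rpl24 (-0.89 ± 0.23, limma, adjusted p = 0.0221), a protein of a bridge between the subunits. The intact heart signals of Rpl22l1, 4.70 and 4.53, lay close to the lowest signals above background on these arrays, 4.52 and 4.47, which limits its difference. Rpl24 had 6.58 and 7.25 on the intact heart arrays, against 7.70 and 7.91 on the peritoneal arrays. Rpl9 (-0.73 ± 0.22), Rpl39 (-0.71 ± 0.21), which lines the exit tunnel of the nascent protein, and Rpl27 (-0.71 ± 0.18) were lower too. So were Rpl10a (-0.65 ± 0.20), Rpl22 (-0.65 ± 0.17), Rpl37 (-0.57 ± 0.16) and Rpl34 (-0.52 ± 0.15). The adjusted p of these 7 genes ran from 0.0179 for Rpl27 to 0.0459 for Rpl10a (limma).

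The P stalk, which recruits elongation factors to the large subunit, is made of Rplp0, Rplp1 and Rplp2. Rplp2 had 9.23 and 9.23 on the intact heart arrays, against 9.85 and 9.65 on the peritoneal arrays, and was the last of the 18 to pass (-0.52 ± 0.17, limma, adjusted p = 0.0468). It was called under 7 of 18 alternatives and lost its call without any 1 of the 6 arrays, with an adjusted p of up to 0.226 (without peritoneal replicate 1). Its other probe past the filter gave -0.22 and was not called. Rplp1 (-0.52 ± 0.21, limma, adjusted p = 0.111) and Rplp0 (0.22 ± 0.17, limma, adjusted p = 0.375) did not pass. The signals of Rplp0 lay between 5.35 and 5.71 on all 6 arrays. The largest positive difference among all members was that of Rpl23 (0.51 ± 0.21, limma, adjusted p = 0.1), whose other 2 probes past the filter gave -0.30 and -0.17. Rpl13a, a large-subunit protein that in human monocytes is known to leave the ribosome and repress inflammatory messages, differed by 0.06 ± 0.19 between the intact heart and the peritoneal cavity and by -0.28 ± 0.19 between the MI heart and the intact heart. Rps3, which sits at the messenger RNA entry, differed by -0.11 ± 0.18 and -0.17 ± 0.18 in these comparisons, and none of these 4 differences passed.

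The last question was how the MI heart differed from the peritoneal cavity. This comparison shares its arrays with the other comparisons and is not independent of them. By limma 3 ribosomal protein genes were lower in the MI heart (Rpl22, Rps6 and Rpl21), where the background was 8.45% lower and 9.16% higher. The 1 call in the other direction, Rpl3l, passed the filter only through the MI heart arrays, where it is high, and so supports nothing about the direction of the members. At an unadjusted p under 0.05, 7 were lower and 1 was higher, against a background of 15.5% and 14%. The median difference was -0.24 (all features -0.05). Below 0 lay 51 of 58 genes (all features 55.3%), among them all 22 of the small subunit. Rps4l, counted among these, passed the filter only through the peritoneal arrays, where it is highest. The groups did not overlap, with the MI heart lower, in 27 genes (background 33.7%) and, with the MI heart higher, in 2 (background 27.3%). The number of genes called fell without MI heart replicate 1, MI heart replicate 2, peritoneal replicate 1 or peritoneal replicate 2, as did the number over all features.

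Rps6 had 7.38 and 7.44 on the MI heart arrays, against 8.04 and 8.27 on the peritoneal arrays (-0.75 ± 0.20, limma, adjusted p = 0.0307). The adjusted p was between 0.0122 and 0.188 over 18 alternatives, and the call was lost without any 1 of the 4 arrays compared. Rpl21, a large-subunit protein, had 4.80 and 4.90 on the MI heart arrays, against 5.64 and 5.31 on the peritoneal arrays (-0.62 ± 0.17, limma, adjusted p = 0.0362). Its other 2 probes past the filter gave -0.41 and -0.08 and were not called, and the call for the gene was lost in 9 of 18 alternatives.

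**Figure D3:**
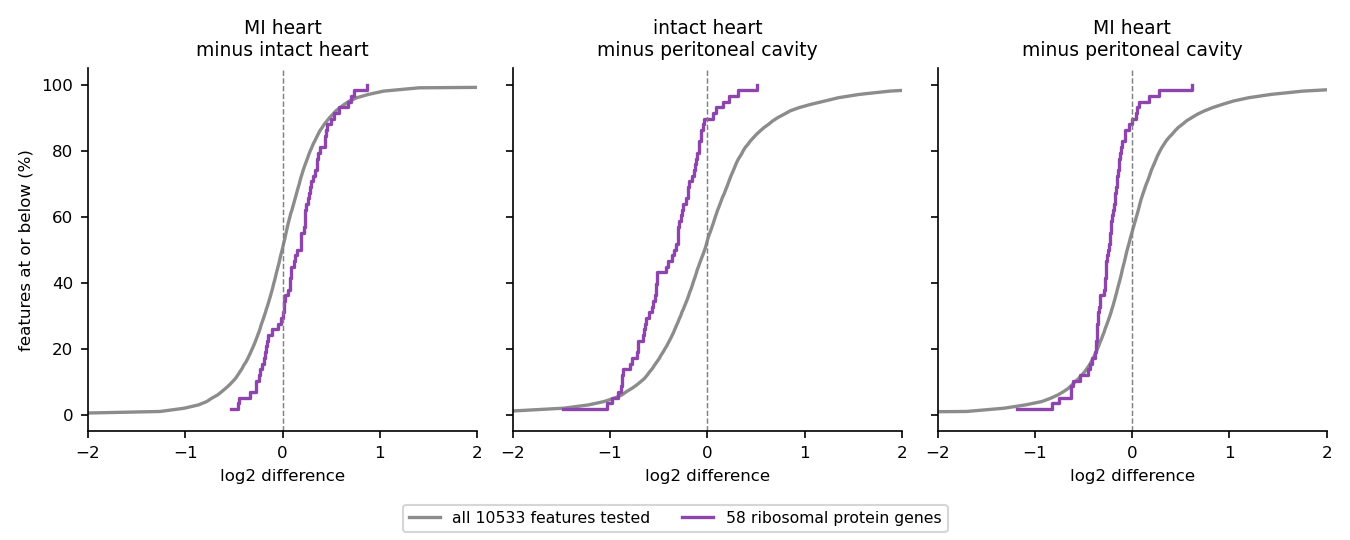
Share of features (vertical axis, %) with a log2 difference at or below the value on the horizontal axis, for 58 ribosomal protein genes and all 10533 features tested; the axis is cut at -2 and 2. The ribosomal protein line lies left of the line of all features at its median in the comparisons of the intact heart (-0.33) and of the MI heart (-0.24) with the peritoneal cavity, and right of it in the comparison of MI heart with intact heart (0.17).

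Several members are paralogs, second copies of a ribosomal protein that can take its place in some tissues. Levels of different genes come from different probes and are not compared. Rpl22 is an RNA-binding protein of the large subunit that in mice is known to repress the messenger RNA of its paralog Rpl22l1. Rpl22 had 5.56 and 5.77 on the MI heart arrays, 6.18 and 6.22 on the intact heart arrays and 6.74 and 6.96 for the peritoneal cavity, with no overlap between any groups. It was lower in the MI heart than in the peritoneal cavity (-1.18 ± 0.17 or 2.26-fold, limma, adjusted p = 0.00133, called under 18 of 18 alternatives). Rpl22l1 had 5.10 and 5.59 on the MI heart arrays, 4.70 and 4.53 on the intact heart arrays and 5.53 and 5.66 for the peritoneal cavity. The order of the groups thus differed between the pair, with the intact heart lowest for Rpl22l1 and the MI heart lowest for Rpl22. Between the MI heart and the intact heart, the signs were opposite, -0.53 ± 0.17 for Rpl22 and 0.73 ± 0.20 for Rpl22l1, and neither passed (limma, adjusted p = 0.0812 and 0.0508).

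Rpl3l replaces Rpl3 in heart and skeletal muscle. Its probe was above background on the 2 MI heart arrays only, with 5.02 and 4.65, against 4.40 and 4.37 on the intact heart arrays and 4.18 and 4.27 for the peritoneal cavity, which give only a bound. The gene entered the fit only because it was above background on the MI heart arrays, so its fitted p (limma, adjusted p = 0.0411 against the peritoneal cavity) is no test of whether it is higher there. As a description, it was at least 1.33-fold higher in the MI heart than in the peritoneal cavity, computed from the mean of the MI heart arrays against the lowest signal above background on each peritoneal array, where the arrays' measured means differed by 0.62 ± 0.18. The call was lost in 9 of 17 alternatives, among them those without MI heart replicate 1 (adjusted p = 0.249), MI heart replicate 2 (0.0553), peritoneal replicate 1 (0.193) or peritoneal replicate 2 (0.14). Its bound against the intact heart was 1.27-fold. Rpl3 had 8.63 and 8.41 on the MI heart arrays, 8.89 and 8.64 on the intact heart arrays and 9.35 and 8.56 for the peritoneal cavity, with no difference past the test.

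The cardiomyocyte marker list, with 9 of 16 genes tested, had summed linear signals of 248 and 247 on the MI heart arrays, 342 and 401 on the intact heart arrays and 225 and 226 for the peritoneal cavity. The intact heart, which had the highest cardiomyocyte sums, did not have the highest Rpl3l signal, and Myh7, Myl7, Actc1, Tnni3, Nppb, Pln and Ckm did not pass the filter. The part of muscle RNA in the Rpl3l result was not tested.

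Rps27l, a paralog of Rps27 that is induced by p53 in human cells, had 7.92 and 7.47 on the MI heart arrays, 6.86 and 7.12 on the intact heart arrays and 8.01 and 7.74 for the peritoneal cavity. It was lower in the intact heart than in the peritoneal cavity (-0.88 ± 0.20, limma, adjusted p = 0.0134), and the MI heart and peritoneal arrays overlapped. Rpl36a had 8.43 and 8.48 on the MI heart arrays, 8.60 and 8.63 on the intact heart arrays and 9.72 and 8.83 for the peritoneal cavity, and its paralog Rpl36al had 10.57 and 10.74, 9.84 and 10.59, and 10.71 and 10.92 in the same order. No difference of Rpl36a or Rpl36al passed. Rps4x and its paralog Rps4l, which was above background on 3 of 6 arrays, also had no difference past the test.

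**Figure D4:**
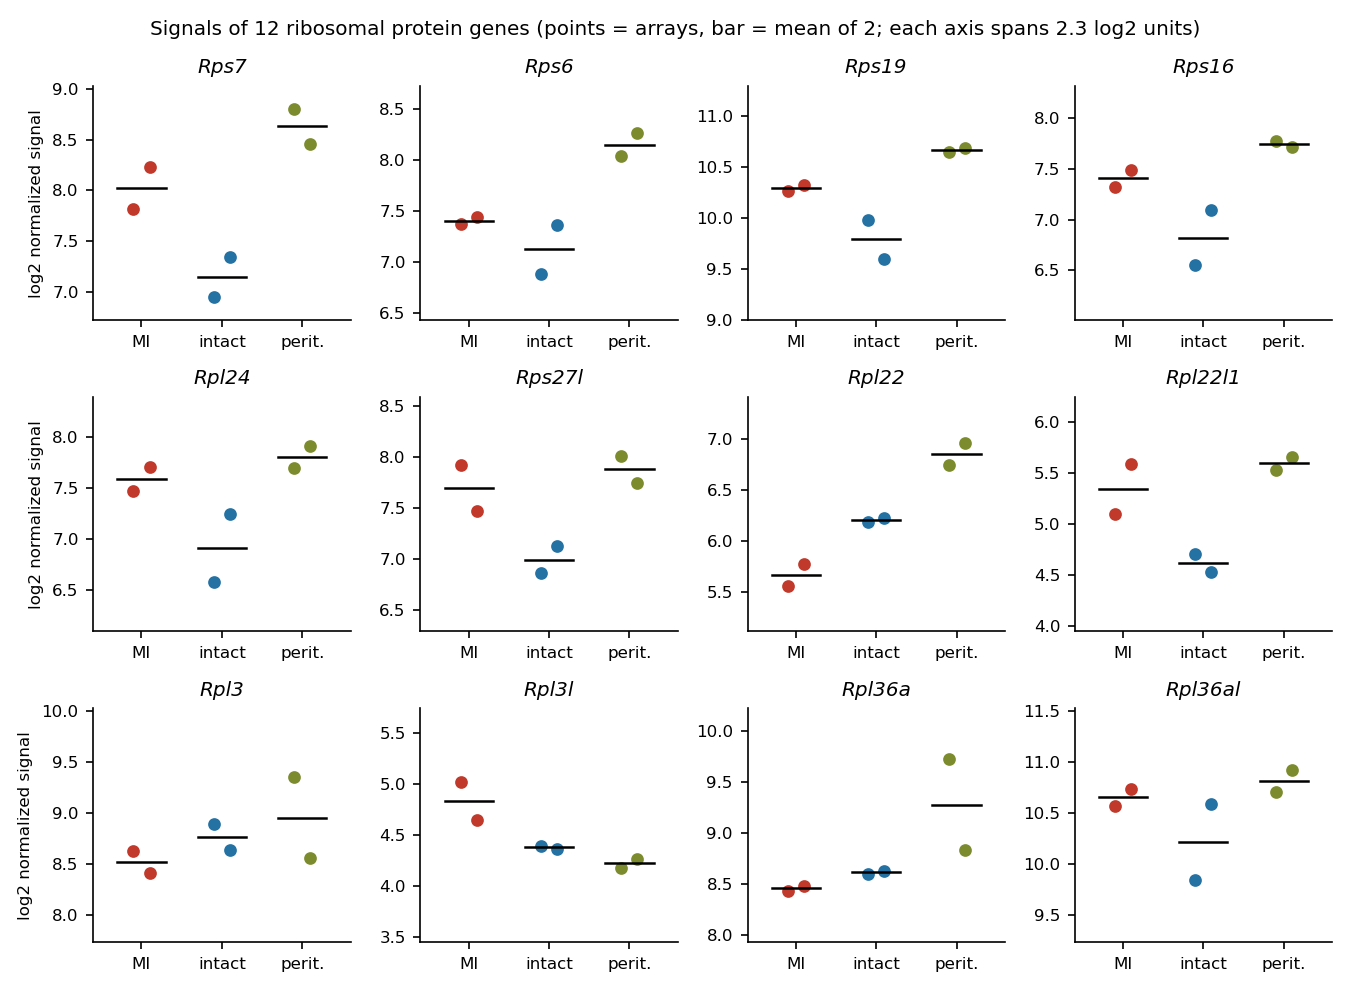
Normalized log2 signals (vertical axes, each spanning the same range) of 12 ribosomal protein genes on the 2 arrays (points) of the MI heart, the intact heart and the peritoneal cavity, with group means (bars). Rps7 is lowest in the intact heart (6.95 and 7.35), Rpl22 is lowest in the MI heart (5.56 and 5.77), and Rpl3l is highest in the MI heart (5.02 and 4.65).

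Some genes could be read with more than 1 probe. Of the 58 tested genes, 15 had more than 1 probe past the filter. Their probes differed in sign in 9 genes between MI heart and intact heart, in 4 between intact heart and peritoneal cavity and in 3 between MI heart and peritoneal cavity. In no comparison did a gene have more than 1 called probe, so called probes could not differ in sign. Whether single probes also bind the processed pseudogenes that ribosomal protein genes are known for was not tested.

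Other genes of protein synthesis were counted from lists of textbook members. Of the elongation factors and other genes with TOP messenger RNAs, 17 of 22 were tested. Between MI heart and intact heart limma called 0 of them, with 3 at an unadjusted p under 0.05, a median of 0.12 and a background of 9.5% called over all features. Between the intact heart and the peritoneal cavity 3 of the 17 were lower and 1 was higher, or 23.5% called against a background of 25.4%, with a median of -0.31. The lower ones were Eef1b2, an elongation factor subunit (-1.10 ± 0.31), Pabpc1, the poly(A) binding protein (-0.58 ± 0.16), and the initiation factor subunit Eif3l (-0.57 ± 0.15). The higher one was the intermediate filament gene Vim (1.21 ± 0.16). Between the MI heart and the peritoneal cavity Eif4b was lower (-0.76 ± 0.21) and Vim was higher (1.25 ± 0.16), or 11.8% called against a background of 17.6%, with a median of -0.05, where that of the ribosomal protein genes was -0.24. Of the initiation factors, 21 of 22 were tested, with medians of 0.07, -0.12 and 0.01 in the 3 comparisons in the order above. Between MI heart and intact heart limma called 0, with 1 at an unadjusted p under 0.05. Eif2b1 and Eif2b4, subunits of the nucleotide exchange factor of initiation, were lower in both kinds of heart macrophages than in the peritoneal cavity, and Eif5 was higher in both. These 3 were all the calls, 14.3% of the 21 in each comparison, below the backgrounds of 25.4% and 17.6%.

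Of ribosome assembly genes, 37 of 50 were tested, and their share of calls was near or below that of all features. It was 4 of 37 (10.8%, background 9.5%) between MI heart and intact heart, 8 (21.6%, background 25.4%) between intact heart and peritoneal cavity and 2 (5.41%, background 17.6%) between MI heart and peritoneal cavity. Between the MI heart and the intact heart, Nop58, Ncl and Nop14 were lower and Rrp1b was higher. Nop58, a core protein of the small nucleolar particles that methylate ribosomal RNA, differed by -2.01 ± 0.33 or 4.04-fold (limma, adjusted p = 0.00758). Nucleolin, encoded by Ncl, differed by -0.78 ± 0.17 and Rrp1b by 1.24 ± 0.16. The intact heart signals of Rrp1b were 4.54 and 4.55, close to the lowest signals above background on these arrays, 4.52 and 4.47. This limits the differences of Rrp1b in comparisons with the intact heart. Between the intact heart and the peritoneal cavity, a comparison that shares the intact heart arrays, Nop58 (1.99 ± 0.33), Ncl (0.74 ± 0.17) and Nop14 (0.85 ± 0.17) were higher, and Gar1, Imp3, Nhp2, Nop10 and Rrp1b were lower. Between the MI heart and the peritoneal cavity, Gar1 (-1.11 ± 0.18) and Ppan (-0.63 ± 0.15) were lower. Of RNA polymerase I genes, 11 of 15 were tested. Between MI heart and intact heart limma called 0 (background 9.5%), with 1 at an unadjusted p under 0.05. In the intact heart 1 was lower than in the peritoneal cavity (9.09% called, background 25.4%). In the MI heart 2 were lower than in the peritoneal cavity (18.2% called, background 17.6%). Polr1a, the largest subunit of the enzyme that transcribes ribosomal RNA, was lower in the intact heart than in the peritoneal cavity (-1.67 ± 0.29, limma, adjusted p = 0.00316), as it was in the MI heart (-1.63 ± 0.29, limma, adjusted p = 0.00456). The medians of the assembly genes were 0.03, -0.12 and -0.09 in the 3 comparisons, and those of the polymerase genes -0.03, -0.23 and -0.12.

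Of genes of mTORC1 and S6 kinase signalling, 21 of 26 were tested. Between MI heart and intact heart 1 was higher and 1 lower (9.52% called, background 9.5%), and between intact heart and peritoneal cavity 1 was higher and 3 lower (19.0%, background 25.4%). Between MI heart and peritoneal cavity 2 were higher and 3 lower (23.8%, background 17.6%). The medians were -0.02, -0.14 and -0.03, and the shares lay near those of all features. Ddit4, an inhibitor of mTORC1, was higher in the MI heart than in the intact heart (1.65 ± 0.37, limma, adjusted p = 0.0268) and than in the peritoneal cavity (2.36 ± 0.37, limma, adjusted p = 0.00239). Sesn1, which restrains mTORC1 when leucine is scarce, was lower in the MI heart than in the intact heart (-1.03 ± 0.16) and in the intact heart than in the peritoneal cavity (-0.55 ± 0.16). Pdcd4, a target of S6 kinase that inhibits initiation, was lower than in the peritoneal cavity in the MI heart (-2.06 ± 0.24) and in the intact heart (-1.69 ± 0.24). Mlst8, a subunit of the complex, was lower and Rragc, a GTPase that recruits it to lysosomes, was higher in both kinds of heart macrophages than in the peritoneal cavity. Of the MYC network, 5 of 9 genes were tested, and Myc itself did not pass the filter. Between MI heart and intact heart 1 was higher, and in each comparison with the peritoneal cavity 1 was higher and 1 lower, counts too small to set against a background. Mxd1, which opposes MYC at shared sites, was higher in the MI heart than in the intact heart (0.80 ± 0.19) and than in the peritoneal cavity (3.09 ± 0.19), and higher in the intact heart than in the peritoneal cavity (2.29 ± 0.19). Mxd4, of the same family, was lower than in the peritoneal cavity in the MI heart (-1.58 ± 0.23) and in the intact heart (-0.86 ± 0.23).

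Genes known to be induced while cells are isolated from solid tissue moved with the groups. Summed linear signals of the 18 immediate early and heat-shock genes of this list were 11231 and 11079 on the MI heart arrays, 16395 and 17552 on the intact heart arrays and 3979 and 4324 for the peritoneal cavity. The order of the groups was the reverse of that of the median ribosomal protein deviations. By limma 10 of the 18 were lower in the MI heart than in the intact heart (background over all features 4.96%). Against the peritoneal cavity, 17 were higher in the intact heart (background 12.5%) and 15 were higher in the MI heart (background 9.16%). Their part in the ribosomal protein differences was not tested. Among markers of other cells, the fibroblast list (7 of 12 tested) had sums of 286 and 282 on the MI heart arrays, 175 and 160 on the intact heart arrays and 134 and 138 for the peritoneal cavity. The sums of the dendritic cell list (4 of 10 tested) were 811 and 702, 882 and 1017, and 653 and 482 in the same order, and those of the neutrophil list (3 of 11 tested) were 212 and 107, 79 and 73, and 113 and 116. B cells had 3 of 8 markers tested, smooth muscle and pericytes 5 of 8, and T and NK cells, endothelium and mesothelium 1 marker each. Of the mast cell list 1 of 7 was tested, Hdc, the histamine-forming enzyme, with linear signals of 329 and 174 on the MI heart arrays, 52 and 49 on the intact heart arrays and 901 and 851 for the peritoneal cavity. Its groups had the same order as the median ribosomal protein deviations, and it differed in each comparison by the test (2.24 ± 0.27, -4.11 ± 0.27 and -1.87 ± 0.27). Cpa3, Cma1, Tpsb2, Mcpt4, Kit, Ms4a2, Cd3e, Pecam1 and Msln did not pass the filter. The part of these cells in the ribosomal protein differences was not tested.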

How the data were processed

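Total RNA was extracted with Trizol and labelled as biotinylated cRNA, per the labels' protocols. The deposited table holds 45281 probes, and for each of the 6 arrays, per the file headers, 1 column of intensity and 1 of detection p-value. The deposited intensity values are linear and not normalized (medians 79.8 to 83.9). The series matrix holds the authors' intensity values after normalization between arrays, by a method not given in the sources used here. It was used as an alternative, and its replicate numbers are exchanged for the MI heart and peritoneal arrays relative to the signal table, whose numbers are used. The number of arrays limits the precision.

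Signals were processed in R 4.3.3 with limma 3.58.1 (neqc: background correction by negative controls that neqc infers from detection p-values, offset 16, quantile normalization, log2). The filter on detection described above kept 14817 probes, and the probe with the highest mean represented each symbol. By platform annotation, 34885 probes had 1 symbol, 18 had several and 10378 had none. Group means were fitted over all 6 arrays (lmFit and eBayes, 3 residual and 5.78 prior degrees of freedom), with two-sided tests and Benjamini-Hochberg adjustment over 10533 features. On simulated data for MI heart against intact heart over 10533 features, the test recovered 2 of 68 changes of 0.5 log2 units, 29 of 66 of 1 and 59 of 66 of 2. These were far fewer changed features than the 1001 called in the data, and the spreads were shuffled among features. The shares recovered therefore do not give the power of the reported test.

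The members and the gene lists were chosen with earlier results of these data known. Named genes are, per comparison, the 8 largest called members a direction and the 3 largest of either call, the P-stalk genes, paralogs with their parent genes, Rps6, Rpl13a and Rps3, and up to 4 called genes a list. The other called members, and Gar1, Ncl, Nhp2 and Nop10 of the assembly list, were named after their values were seen. Deviations of same-numbered arrays correlated between groups at 0.08, 0.17 and 0.16, so the replicate numbers were not taken as pairs. Promoters are from RefSeq, GRCm38.p6. The number of value columns not used is 0.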

Additional observations from a re-analysis of the deposited data

How the results depend on the processing

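Each result was recomputed under 18 alternatives, among them leaving out each array in turn, with the probe filter of all 6 arrays kept. The lone array left in a group is then assumed to vary like the others. The median difference of ribosomal protein genes kept its sign in both comparisons with the peritoneal cavity under all 18, and in MI heart against intact heart under all but the fit without MI heart replicate 2. Of 1395 values of single genes under an alternative, 1269 kept sign and call, 75 lost a call, 22 gained one and 29 changed sign, none of them called with either sign. Where values moved, the cause was not tested.

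Median scaling in place of quantile normalization moved the median of all features to 0.12 for MI heart against intact heart and to -0.18 for intact heart against peritoneal cavity, and that of ribosomal protein genes to 0.34 and -0.59. All calls then split into 679 higher and 174 lower for MI heart against intact heart (479 and 522 in the reported fit) and into 760 and 2040 for intact heart against peritoneal cavity (1321 and 1352). With cyclic loess the ribosomal protein median was 0.04 for MI heart against intact heart.

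The number of ribosomal protein genes called in MI heart against intact heart was 0 with no background correction, series matrix values, offset 50, no filter or only the 2 groups fitted, 2 with the mean of probes and 3 with a trend and robust prior. In MI heart against peritoneal cavity it was 2 with median scaling, no background correction, series matrix values or offset 50, and 1 with no filter. In intact heart against peritoneal cavity it was 7 with no filter. The number of all features called in MI heart against intact heart was 660 with no background correction, 653 with series matrix values, 424 with no filter, 565 with the strict filter (detection p under 0.01 on all arrays) and 590 with only the 2 groups fitted. The strict filter gave 1523 for intact heart against peritoneal cavity and 1054 for MI heart against peritoneal cavity, where no filter gave 1184.

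With each array left out in turn, ribosomal protein genes called ranged from 0 to 4 in MI heart against intact heart, from 4 to 18 in intact heart against peritoneal cavity and from 1 to 4 in MI heart against peritoneal cavity. Their medians ranged from -0.007 to 0.30, from -0.43 to -0.31 and from -0.37 to -0.12, and all features called from 249 to 976, from 1424 to 2399 and from 926 to 2179. With the replicate block, which treats same-numbered arrays as a pair, 4 ribosomal protein genes were called in MI heart against intact heart, with 23 and 6 in the other comparisons. The arrays share only a number, and the block is not part of the design.

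Sign changes of single genes were as follows. In MI heart against intact heart, median scaling gave Rpl13a 0.019, Rpl3 0.04, Rpl36a 0.13, Rplp0 0.062 and Rps3 0.16, cyclic loess gave Rpl41 -0.012 and Rps4x -0.081, and the mean of probes gave Rps3 0.06. In intact heart against peritoneal cavity, median scaling gave Rpl13a -0.24, Rpl30 -0.23 and Rplp0 -0.05, cyclic loess gave Rpl41 0.076, and the mean of probes gave Rpl30 -0.30 and Rpl7l1 -0.27. The mean of probes gave Rpl23 -0.014 in MI heart against peritoneal cavity. With each array left out, MI heart against intact heart ranged from -0.024 to 0.47 for Rplp1 and from -0.18 to 0.34 for Rps4x. MI heart against peritoneal cavity ranged from -0.08 to 0.16 for Rplp0, from -0.41 to 0.049 for Rps27l and from 0 to 0.56 for Rpl23. Intact heart against peritoneal cavity ranged from -0.19 to 0.38 for Rpl30, from -0.17 to 0.07 for Rpl41, from -0.23 to 0.017 for Rps3, from -0.10 to 0.23 for Rpl13a, from -0.59 to 0.21 for Rpl3 and from -0.26 to 0.026 for Rps4l. Signals close to background limit Rpl3l, Rpl14, Rpl17 and Rps4l, as well as Rpl22l1 in the intact heart and Rpl21 in the MI heart. Counting pyrimidine stretches that begin before the window, chosen after seeing the data, moved the share of ribosomal protein promoters with a run from 50.9% to 54.7% and that of all genes from 20.8% to 22%.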
